A study of Mus musculus with 7 samples.

Results

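The genes described here encode the subunits of the receptors for glutamate and for GABA: the AMPA, kainate, NMDA and delta subunits, the metabotropic glutamate receptors and the GABA-A subunits. They were taken by name, as every protein-coding row of the deposited count table whose symbol begins with Gria, Grid, Grik, Grin or Grm and a digit, or with Gabr and a letter. This gave 46 genes of 54532 in the table. The name rule also takes in Grid2ip, which encodes a scaffold that binds a delta receptor and is no subunit.

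The libraries came from cochlear epithelium of mouse embryos at embryonic day 16. Per the labels, 4 libraries were of the genotype Brg1 knockout (KO) and 3 of the genotype Control, and all were untreated. Brg1, the product of Smarca4, is the ATPase of the BAF chromatin remodelling complex. No source used here names the Cre driver, the deleted exons, the alleles that the controls carried or the number of embryos per library. Nothing states that replicates came from separate embryos, so the p-values refer to the spread among libraries, which may be technical.

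Glutamate opens AMPA, kainate and NMDA receptors, which are cation channels of 4 subunits each, and it also acts through metabotropic receptors coupled to G proteins. In the mature cochlea, inner hair cells release glutamate onto AMPA receptors of spiral ganglion neurons. GABA opens GABA-A receptors, chloride channels of 5 subunits drawn from the alpha, beta, gamma and other classes, and in the cochlea it is known as a transmitter of efferent fibres.

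Library totals lay between 16098269 and 18503657 counts in KO and between 18251122 and 18872133 in controls, so a floor of 3 counts was 0.159 to 0.186 CPM, the count scaled to library size. Smarca4 was at 281, 239, 228 and 250 CPM in KO, against 372, 356 and 376 CPM in controls, and fell by 0.56 on the log2 scale ± 0.09 (SE; adjusted p = 0.00338). Its counts cover the whole gene, and reads outside the deleted part do not bear on the deletion. Of 12 epithelial markers 8 were higher in KO, and of 14 hair cell markers 4, with none lower in either list. By the same test, described below, 1.94% of all tested genes were higher. None of these 26 marker genes was at 0 in all libraries. The summed level of each of the 2 lists was 302 CPM or more in every library, so markers of the labelled tissue were detected in both groups. The decimal fractions of the counts set KO replicate 4 and control replicate 3 apart from the other 5 libraries, a property of the deposited values that no label explains. Values within these sets of 5 and 2 libraries are given for the called receptor genes described here and for some others.

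Of the 46 genes, 34 had counts high enough to test, and 4 of them fell in KO, among them Gria4, Grin1 and Grin3a. None rose. Genes were tested over the whole table with edgeR's quasi-likelihood test, called at a Benjamini-Hochberg adjusted p below 0.05. The 4 genes are 11.8% of those tested, where 6.82% of all 17341 tested genes were called, 4.87% lower and 1.94% higher. At an unadjusted p below 0.05, 9 of the 34 were lower and 2 higher, or 32.4%, against 21.2% of all tested genes. The libraries of the groups did not overlap in CPM for the same number, 9 with KO below and 2 with KO above, against 20.7% of all tested genes in either direction, 11.5% with KO below and 9.27% with KO above. The median log2 fold change was -0.15 over the 34 genes and 0.02 over all tested genes. These 34 are not all members, and some of them were past the minimum of the low-count filter in too few libraries of 1 group to have passed on that group alone. These included Gabra5 and Grm8, past it in 2 KO libraries each, and Gria1 and Grm7, past it in 2 control libraries each. Gabra5 and Grm8 are among the 9 lower genes by unadjusted p and the 9 with KO below. Gria1 is among the 2 higher by unadjusted p. The comparison with all tested genes therefore includes genes that the filter kept through their higher group.

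Many neuron markers were also lower in KO, as were the sums of the glial list and of some tissue marker lists given below. Lower in KO were 17 of 24 neuron markers, at a median of -1.31 (log2) over the list, no marker was higher, and none was at 0 in every library. Their summed level was 1139 to 1604 CPM in KO and 2826 to 3196 CPM in controls. Tubb3, a tubulin of neurons, had 116, 71.2, 115 and 53.3 CPM in KO, against 261, 234 and 289 CPM in controls, and fell by 1.56 on the log2 scale ± 0.28 (SE; adjusted p = 0.0232). Of 12 glial markers 4 were lower and none higher, and their sum was 785 to 1048 CPM in KO and 1555 to 1737 CPM in controls. The part of either in the changes of receptor genes was not tested, and in these bulk libraries fewer cells of a type and less RNA per cell cannot be told apart.

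The subunits differed widely in level. Set per gene length, as FPKM, Grik5 stood far above the rest, at 37.8 ± 3.57 FPKM in KO (SD, n = 4) and 34.7 ± 0.278 in controls (SD, n = 3). Grik5 encodes the kainate subunit GluK5, which needs another kainate subunit to form a working channel. Its control mean was 6.02 times that of the next gene, Gria3, at 5.61 ± 0.483 FPKM in KO and 5.76 ± 0.675 in controls. Below it in the controls were Gria4, Grin2d, Gabre, Grik1 and Grik4, at means between 1.83 and 4.29 FPKM in KO and between 2.73 and 3.89 in controls. Among Grin2d, Gabre, Grik1 and Grik4 the control libraries overlapped from each gene to the next. Only 10 of the 46 genes reached a mean of 1 FPKM in KO, and likewise 10 in controls.

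**Figure D1:**
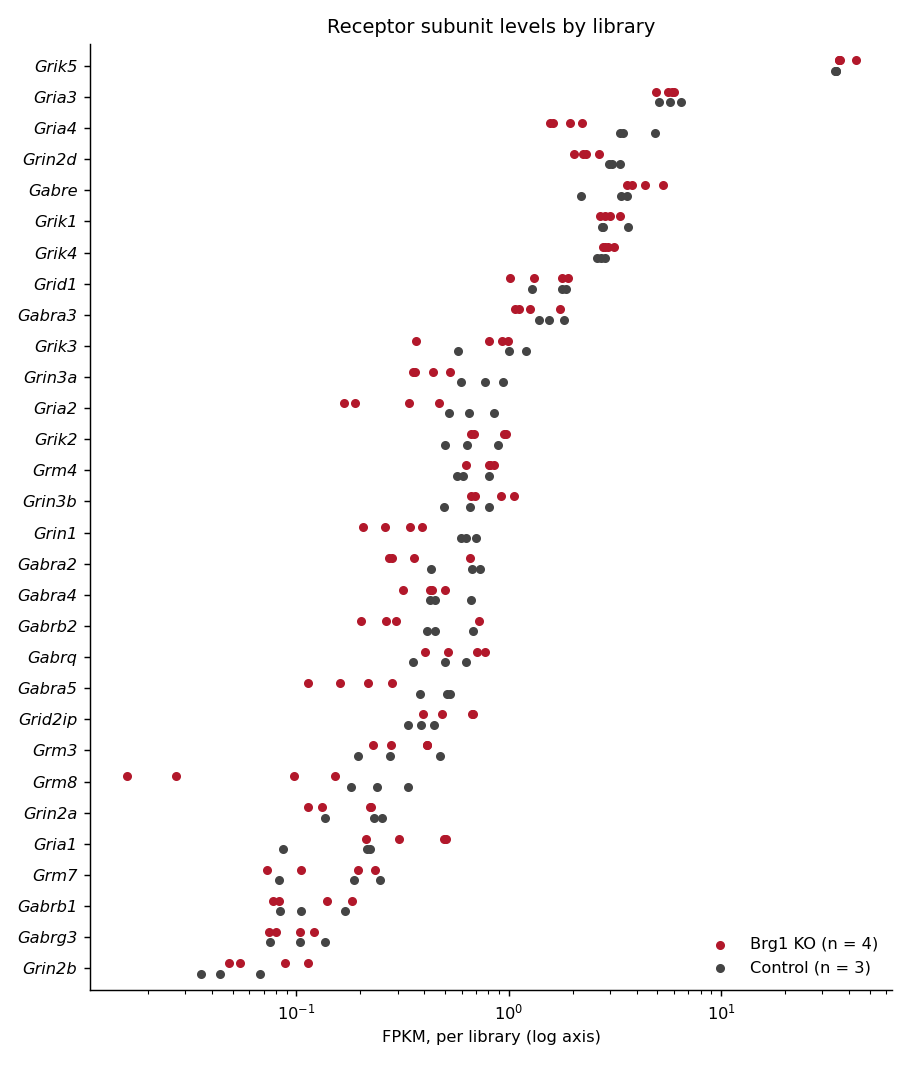
FPKM of 30 of the tested genes on a log axis, each point 1 library, with the 4 KO libraries in red above the 3 control libraries in grey and the genes ordered by their control mean. Grik5 lies alone near 35 FPKM, and Gria4, Grin1 and Grin3a have every KO point left of every control point.

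The AMPA subunits moved in different ways. Gria4, which encodes GluA4, a subunit of fast AMPA receptors, had 10.4, 12.6, 14.3 and 10.3 CPM in KO replicates 1 to 4, against 31.0, 21.6 and 22.7 CPM in control replicates 1 to 3. Every KO library lay below every control library, and the KO mean was 47.4% of the control mean. Gria4 (ENSMUSG00000025892, chromosome 9, 4417896 to 4796234, mm10, reverse strand) fell by 1.08 on the log2 scale ± 0.16 (SE; adjusted p = 0.00284). The log2 ratio of mean CPM was -1.08 among the 5 libraries that share a fraction and -1.13 between the other 2.

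Gria2 encodes GluA2, the subunit whose edited form keeps calcium out of the channel. It had 3.0, 2.67, 7.52 and 5.52 CPM in KO, against 13.4, 10.4 and 8.46 CPM in controls. The groups did not overlap, but the KO libraries spread over more than a 2-fold range, and the log2 fold change of -1.21 ± 0.34 (SE) did not pass the test (adjusted p = 0.0632). Without KO replicate 3, the highest of the 4, it passed at -1.53 (adjusted p = 0.0149), and DESeq2 also called it. The log2 ratio was -1.44 in the 5 libraries and -0.61 between the other 2.

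Gria3, which encodes GluA3, had 60.1, 49.5, 57.3 and 60.9 CPM in KO, against 64.1, 58.3 and 52.2 CPM in controls. The groups overlapped throughout, at a log2 fold change of -0.03 with a 95% interval of -0.25 to 0.19. Gria1, which encodes GluA1, had 1.31, 1.87, 3.14 and 3.15 CPM in KO, against 1.36, 1.33 and 0.546 CPM in controls. It did not pass (1.12 ± 0.41 SE; adjusted p = 0.136), KO replicate 1 lay within the control range, and the log2 ratio was 0.65 in the 5 libraries against 2.53 between the other 2.

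As shares of the summed AMPA subunit FPKM, Gria3 took 69.2% ± 4.72 in KO (SD, n = 4) and 55.1% ± 2.94 in controls (SD, n = 3). Gria4 took 22.6% ± 3.72 in KO and 36.9% ± 3.02 in controls, and Gria2 took 3.52% ± 1.46 in KO and 6.38% ± 0.613 in controls. Gria1 took 4.63% ± 1.55 in KO and 1.63% ± 0.621 in controls. The libraries of the groups did not overlap in any of these 4 shares, which add to the whole and so are not independent of each other. The shares were not tested. The summed AMPA level was 7.34 to 8.83 FPKM in KO and 9.16 to 12.4 FPKM in controls.

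**Figure D2:**
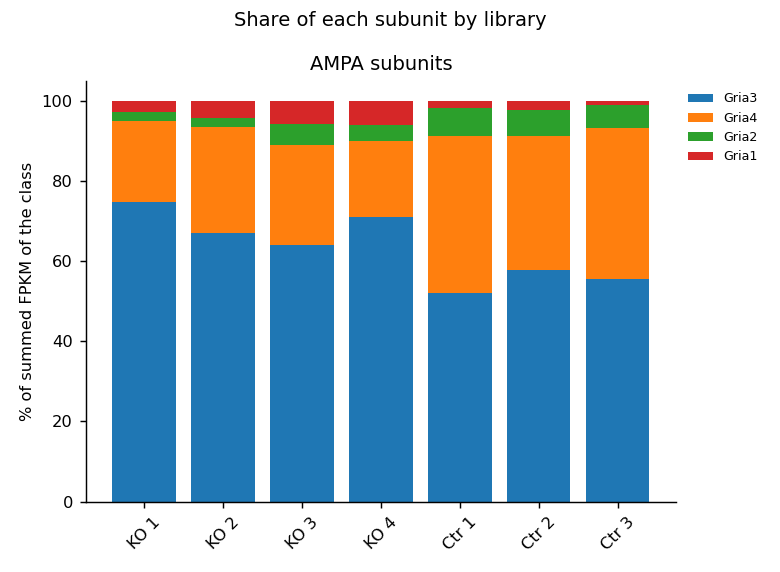
Share of each AMPA subunit in the summed FPKM of the class, in %, 1 bar per library with the KO libraries left of the controls. Gria3 makes up more and Gria4 less of the AMPA sum in every KO library.

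The NMDA subunits held 2 of the 4 falls. Grin1 encodes GluN1, the subunit that every NMDA receptor contains. It had 3.38, 2.03, 3.88 and 2.67 CPM in KO, against 6.17, 5.94 and 7.04 CPM in controls, so the highest KO library lay well below the lowest control. Grin1 (ENSMUSG00000026959, chromosome 2, 25291181 to 25319187, mm10, reverse strand) fell by 1.09 on the log2 scale ± 0.23 (SE; adjusted p = 0.0158). The log2 ratio was -0.97 in the 5 libraries and -1.40 between the other 2. Without control replicate 1 or 3 the adjusted p was 0.0528 and 0.0578, and in the 5 libraries alone it was 0.123. An antisense gene, Grin1os, shares 13.5% of the exon bases of Grin1 and was at 0.174 CPM in KO and 0.0729 CPM in controls.

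Grin3a encodes GluN3A, a subunit of developing neurons that lowers the calcium flow of NMDA receptors. It had 4.53, 4.44, 6.66 and 5.70 CPM in KO, against 9.56, 11.9 and 7.58 CPM in controls. The groups did not overlap, with KO replicate 3 the nearest to the controls. Grin3a (ENSMUSG00000039579, chromosome 4, 49661611 to 49845744, mm10, reverse strand) fell by 0.86 on the log2 scale ± 0.21 (SE; adjusted p = 0.0296), and the log2 ratio was -1.04 in the 5 libraries and -0.41 between the other 2. Its call is the least stable of the 4. It was lost without KO replicates 1, 2 or 4 (adjusted p = 0.0606, 0.0783 and 0.0513) and without control replicates 1 or 2 (adjusted p = 0.0824 and 0.114). It was also lost with a term for the 2 sets of libraries (adjusted p = 0.0531), and with limma on log2(FPKM + 0.1) and log2(FPKM + 1) (adjusted p = 0.0932 and 0.0724).

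Grin2d, which encodes GluN2D, a subunit of embryonic NMDA receptors, was the most abundant NMDA gene, at 2.31 ± 0.257 FPKM in KO (SD, n = 4) and 3.12 ± 0.188 in controls (SD, n = 3). It had 15.7, 13.9, 18.2 and 15.7 CPM in KO, against 22.4, 20.3 and 21.2 CPM in controls. The groups did not overlap, yet it did not pass at a log2 fold change of -0.43 ± 0.12 (SE; adjusted p = 0.0579). DESeq2 called it, and it passed without KO replicate 3 (adjusted p = 0.0420). Grin2a, at -0.25 ± 0.30, and Grin2b, at 0.65 ± 0.38, encode other GluN2 subunits and did not pass. Grin3b was at 0.37 ± 0.27, but 32.1% of its exon bases are shared with Tmem259, a gene on the other strand at 203 CPM in KO and 186 CPM in controls, so its counts are uncertain.

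**Figure D3:**
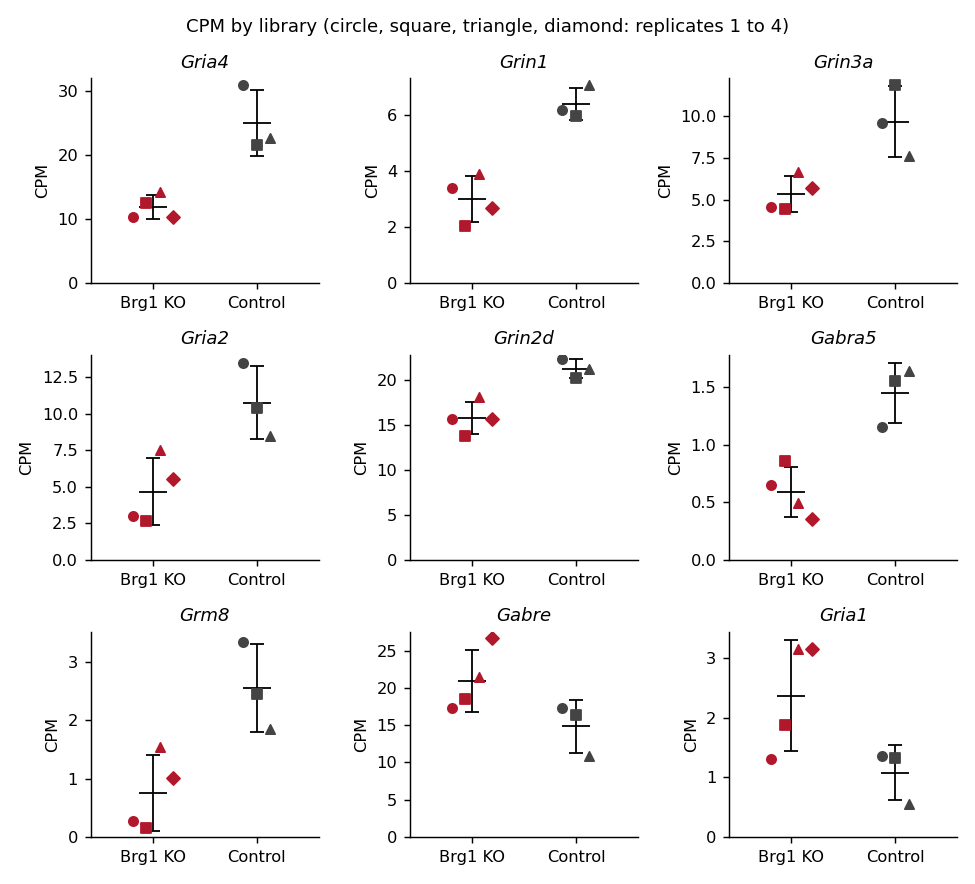
CPM by library for 9 receptor genes, with KO on the left and control on the right of each panel, marker shape for the replicate number, and the mean and SD in black. In Gria4, Grin1, Grin3a, Gria2, Grin2d, Gabra5 and Grm8 every KO library lies below every control, in Gabre every KO library lies above, and in Gria1 the groups overlap.

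None of the 5 kainate subunits was called with either edgeR or DESeq2, and none had an unadjusted p below 0.05. Grik5 had 189, 189, 193 and 235 CPM in KO, against 182, 185 and 185 CPM in controls. Every KO library lay above the controls, by a small margin in all but replicate 4, and the 95% interval of the log2 fold change was -0.07 to 0.33. Grik1 and Grik4, which encode GluK1 and GluK4, were as close between groups, with intervals of -0.31 to 0.25 and -0.13 to 0.34. Grik2 (0.29 ± 0.22 SE) and Grik3 (-0.26 ± 0.33 SE) were measured less closely. The summed level of the class was 43.3 to 50.3 FPKM in KO and 41.5 to 43.1 FPKM in controls.

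Grid1 encodes a delta subunit, a class known to link synapses through cerebellins, and did not pass either. It had 7.96, 10.9, 11.7 and 6.36 CPM in KO, against 10.7, 7.88 and 11.6 CPM in controls. The groups overlapped (-0.12 ± 0.22 SE), and the direction turned to 0.13 in the 5 libraries alone. The scaffold gene Grid2ip was at 0.53 ± 0.25 and did not pass. It shares 9.52% of its exon bases with an antisense gene.

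**Figure D4:**
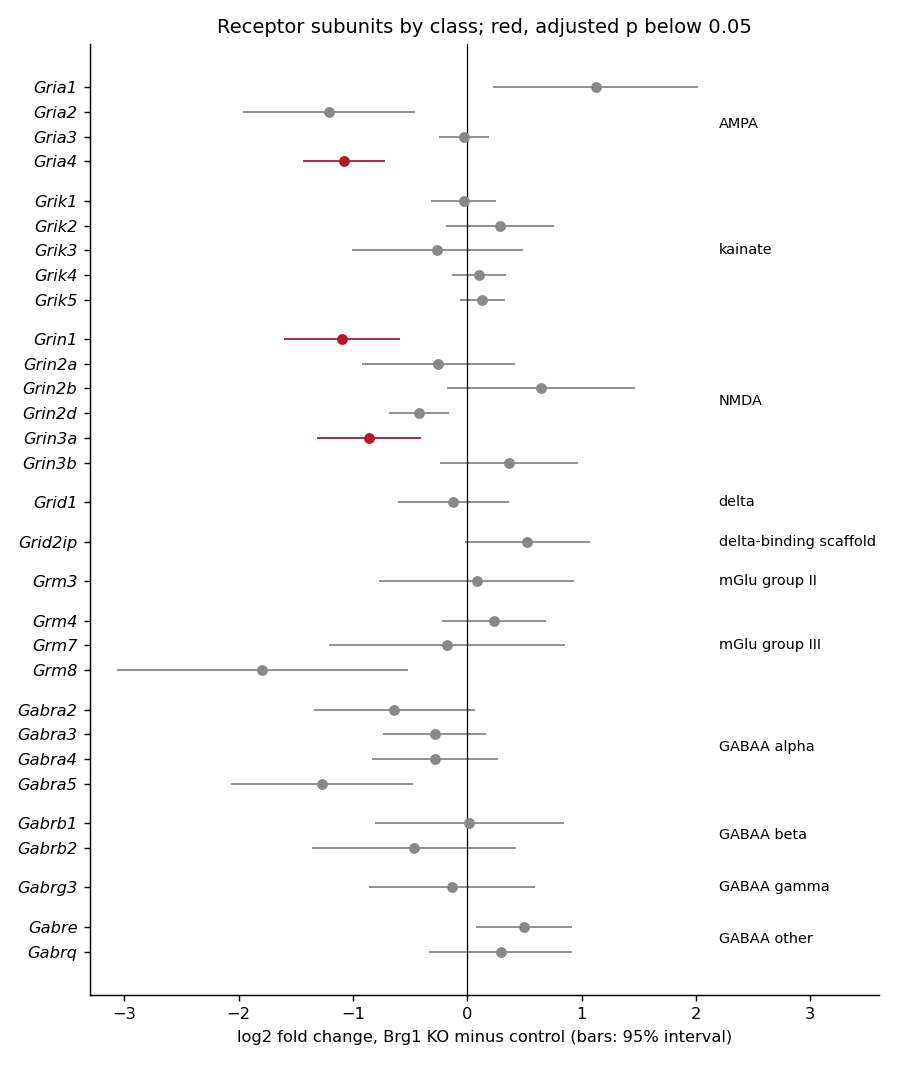
Log2 fold change, KO minus control, of 30 of the tested genes by class, with 95% intervals and the called genes in red. The kainate genes lie near 0 with the intervals of Grik1, Grik4 and Grik5 within 0.4 of it, while Gria4 of the AMPA class and Grin1 and Grin3a of the NMDA class are called below 0.

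Metabotropic receptors were scarce, with 4 of 8 tested and none called by edgeR. Grm4, the most abundant, was at 0.774 ± 0.0982 FPKM in KO (SD, n = 4) and 0.661 ± 0.126 in controls (SD, n = 3). It had 5.18, 3.85, 4.99 and 5.05 CPM in KO, against 3.66, 4.94 and 3.55 CPM in controls, with overlapping groups and a log2 fold change of 0.24 ± 0.21 (SE). Grm8, like Grm4 a group III receptor that lowers cyclic AMP, had 0.273, 0.160, 1.54 and 1.01 CPM in KO, against 3.34, 2.44 and 1.86 CPM in controls. The groups did not overlap, but the log2 fold change of -1.79 ± 0.57 (SE) did not pass (adjusted p = 0.0987). It passed by DESeq2 and without KO replicate 3 (adjusted p = 0.0338). The log2 ratio was -2.14 in the 5 libraries and -0.88 between the other 2. Grm3 was at 0.08 ± 0.39 and Grm7 at -0.18 ± 0.47.

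None of the GABA-A genes described here passed the test with edgeR. Gabra2 had a log2 fold change of -0.64 ± 0.32 (SE), Gabra3 of -0.29 ± 0.21 and Gabra4 of -0.28 ± 0.25, and the groups overlapped in all 3 of these alpha subunit genes. Gabra5, which encodes the alpha5 subunit, had 0.655, 0.856, 0.493 and 0.356 CPM in KO, against 1.15, 1.55 and 1.64 CPM in controls. The groups did not overlap, at -1.27 ± 0.36 (SE; adjusted p = 0.0601). The log2 ratio was -1.02 in the 5 libraries and -2.20 between the other 2. Gabrb1 (0.02 ± 0.38 SE), Gabrb2 (-0.47 ± 0.41 SE) and Gabrg3 (-0.13 ± 0.33 SE), which encode beta and gamma subunits, had overlapping groups.

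On the other side of 0 lay Gabre and Gabrq, which encode the epsilon and theta subunits. Gabre had 17.3, 18.5, 21.4 and 26.7 CPM in KO, against 17.3, 16.4 and 10.8 CPM in controls. Its lowest KO library barely cleared the highest control, and it did not pass (0.50 ± 0.19 SE; adjusted p = 0.159). The log2 ratio was 0.18 in the 5 libraries and 1.30 between the other 2. Gabrq was at 0.29 ± 0.29 with overlapping groups. Gabre and Gabrq are named here after their values were seen.

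Of the summed GABA-A FPKM, Gabre took 44.9% ± 6.66 in KO (SD, n = 4) and 27.0% ± 5.07 in controls (SD, n = 3). Every KO library lay above every control in this share, which was not tested. The summed GABA-A level was 9.52 ± 0.545 FPKM in KO (SD, n = 4) and 11.3 ± 1.81 FPKM in controls (SD, n = 3), and the lowest control barely exceeded the highest KO library.

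The 12 genes too low to test included Gabra6, Gabrd, Gabrg1, Gabrp, Gabrr1, Gabrr2, Gabrr3, Grin2c, Grm2, Grm5 and Grm6. The highest count of any of these in a library was 9.83, in Gabrr2. Gabra6, a gene of cerebellar granule cells, was at 0 in all 7 libraries, and Gabrp, Gabrr1 and Gabrr3 stayed below 1 count in each. Gabrr2, a rho subunit, had 4.83, 9.83, 0.833 and 5.17 counts in KO, against 1.83, 0.833 and 1.17 counts in controls, with KO replicate 3 as low as the controls.

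Promoter windows of RefSeq (GRCm38.p6, 250 bases before to 50 after the start) were found for 31 of the 46 genes. Of these, 22 are tested genes with 30 windows, whose median CpG count was 13, against 7 over all 32841 windows. Those 32841 windows were not limited to tested genes, and the part of this difference in the comparisons was not tested. The motif GGGCGG, the GC box, was in 53.3% of the 30 windows and in 35.7% of all, on either strand. The motif holds only G and C, and the median GC content was 61% in the 30 windows and 52.7% over all. The part of GC content in the motif counts was not tested. CACGTG, an E-box that reads the same on both strands, was in 3.33% of the 30 and 7.15% of all. TTCAGCACC, the left part of the RE1 element that REST binds, was in none of the 30 windows and in 0.371% of all. Among all 39 windows of the 31 genes it was in 1, that of Grm2, a gene too low to test. The windows of Gria4 and Grin1, both called lower, and of Grik5, the most abundant gene, are shown. No window was found for Grin3a. Of the windows shown, Gria4 (chr9:4796185-4796484, reverse strand) held none of these motifs. Grin1 (chr2:25319138-25319437, reverse strand) held CACGTG at 2 places and GGGCGG at 1, and Grik5 (chr7:25072320-25072619, reverse strand) held GGGCGG at 2. They are written 5′ to 3′ on the gene's strand with the motifs in capitals.
Gria4: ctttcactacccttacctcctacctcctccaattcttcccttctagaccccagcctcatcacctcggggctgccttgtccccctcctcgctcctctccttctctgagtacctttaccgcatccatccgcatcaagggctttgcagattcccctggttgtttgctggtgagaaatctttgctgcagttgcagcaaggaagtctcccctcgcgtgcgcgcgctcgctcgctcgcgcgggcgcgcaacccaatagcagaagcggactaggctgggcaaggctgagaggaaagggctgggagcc
Grin1: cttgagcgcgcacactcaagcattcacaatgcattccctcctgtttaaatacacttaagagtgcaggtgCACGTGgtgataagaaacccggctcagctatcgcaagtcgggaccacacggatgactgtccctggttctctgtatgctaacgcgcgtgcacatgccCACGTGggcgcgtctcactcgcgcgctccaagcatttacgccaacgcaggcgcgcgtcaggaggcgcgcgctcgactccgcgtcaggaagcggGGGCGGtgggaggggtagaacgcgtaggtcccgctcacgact
Grik5: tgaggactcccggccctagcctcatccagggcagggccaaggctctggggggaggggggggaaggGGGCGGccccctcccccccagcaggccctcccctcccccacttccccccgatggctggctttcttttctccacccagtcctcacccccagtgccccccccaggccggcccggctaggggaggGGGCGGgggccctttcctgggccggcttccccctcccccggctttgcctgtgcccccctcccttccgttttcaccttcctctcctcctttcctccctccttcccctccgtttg
The Gria4 window had 17 CpG, the Grin1 window 33 and the Grik5 window 10. These matches describe the letters only.

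Genes that work with the receptors were followed in lists chosen with earlier results of these data known. For comparison, 4.87% of all tested genes were called lower and 1.94% higher, and these small lists were not tested against those shares. Of 16 tested genes for auxiliary subunits and partners of ionotropic glutamate receptors, 3 were lower, 1 was higher, and the median log2 fold change was -0.39. Cacng2, which encodes stargazin, the AMPA receptor partner, had 2.67, 3.10, 3.76 and 1.96 CPM in KO, against 9.56, 8.66 and 9.99 CPM in controls, and fell by 1.71 on the log2 scale ± 0.22 (SE; adjusted p = 0.00136). Cacng4, of the same family, had 23.4, 13.5, 16.6 and 18.5 CPM in KO, against 44.5, 37.2 and 42.5 CPM in controls, and fell by 1.2 ± 0.16 (adjusted p = 0.00157). Both stayed called under all 17 alternatives. Olfm1, which encodes olfactomedin 1, fell by 0.48 ± 0.10, but not without control replicate 1 (adjusted p = 0.0697). Neto2, a kainate receptor partner, rose by 0.40 ± 0.08, but did not pass without control replicate 2 or 3 (adjusted p = 0.0665 and 0.0558).

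Of 24 genes of glutamatergic scaffolds and postsynaptic signalling, 2 were lower in KO and 0 higher, and the median was -0.05. Shank1 had 31.3, 32.7, 36.2 and 30.7 CPM in KO, against 48.1, 44.2 and 44.4 CPM in controls, and fell by 0.48 on the log2 scale ± 0.09 (SE; adjusted p = 0.00790). Dlg2, which encodes PSD-93, fell by 0.73 ± 0.16, with adjusted p of 0.1005, 0.0600 and 0.0509 without control replicate 1 or KO replicate 2 or 4. Dlg4, which encodes PSD-95, was at 0.10 ± 0.08 with overlapping groups.

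Of 15 GABA receptor partners, including the GABA-B receptor genes, 2 were lower and 1 higher, with a median of -0.14. Lhfpl4, which places GABA-A receptors at synapses, had 13.4, 8.99, 16.8 and 9.98 CPM in KO, against 34.1, 25.0 and 33.7 CPM in controls, and fell by 1.33 on the log2 scale ± 0.20 (SE; adjusted p = 0.00364). Kctd12, a GABA-B receptor partner, rose by 0.37 ± 0.09, and Kctd16, of the same family, fell by 1.53 ± 0.38. Neither call was stable: without control replicate 1 the adjusted p was 0.0967 for Kctd12 and 0.115 for Kctd16, and 3 and 4 other single libraries ended them too. Gphn, which encodes gephyrin, the anchor of GABA-A receptors, was at -0.14 ± 0.11 with overlapping groups.

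On the side of transmitter supply, 1 of 14 tested genes was higher and 2 were lower, with a median of 0.15. Gad1, which makes GABA, rose by 3.39 ± 0.22 on the log2 scale (SE), to 40.1 ± 8.45 CPM in KO (SD, n = 4), against 3.82 ± 1.01 CPM in controls (SD, n = 3), while the vesicular GABA transporter gene Slc32a1 was too low to test in both groups. The vesicular glutamate transporter genes Slc17a6 and Slc17a7 fell by 1.77 ± 0.31 and 1.34 ± 0.30, the second not without control replicate 2 (adjusted p = 0.0876). Slc12a2, which encodes the chloride importer NKCC1, rose by 0.64 ± 0.13, but not without control replicate 2 or 3 (adjusted p = 0.0592 and 0.0542). Slc12a5, which encodes the exporter KCC2, was at 0.57 ± 0.26 and did not pass. In the 5 libraries alone Neto2, Olfm1, Dlg2, Kctd16, Slc17a6, Slc17a7 and Slc12a2 lost their calls, with adjusted p from 0.0536 to 0.126.

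Marker lists of the labelled tissue moved in both directions, where 4.87% of all tested genes were called lower and 1.94% higher. The sum of the 12 epithelial markers was 1602 to 1845 CPM in KO and 1258 to 1449 CPM in controls, and that of the 14 hair cell markers was 374 to 420 CPM in KO and 302 to 334 CPM in controls. Of 14 prosensory and supporting cell genes 5 were lower and none higher, and their sum was 1024 to 1098 CPM in KO and 1385 to 1543 CPM in controls. Of 10 greater epithelial ridge genes 2 were lower and 1 higher, and their sum was 3033 to 3576 CPM in KO and 3816 to 4224 CPM in controls. In both of these lists every KO sum lay below every control sum, as for the neuron and glial markers. The prosensory list shares Fabp7 with the glial list and Isl1 with the neuron list, so these sums are not independent. The part of these lists in the changes of receptor genes was not tested either. Of 10 mesenchyme genes 3 were higher, and of 9 macrophage genes 2. None of the 7 melanocyte, 7 endothelial and 6 erythroid genes was called by edgeR.

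**Figure D5:**
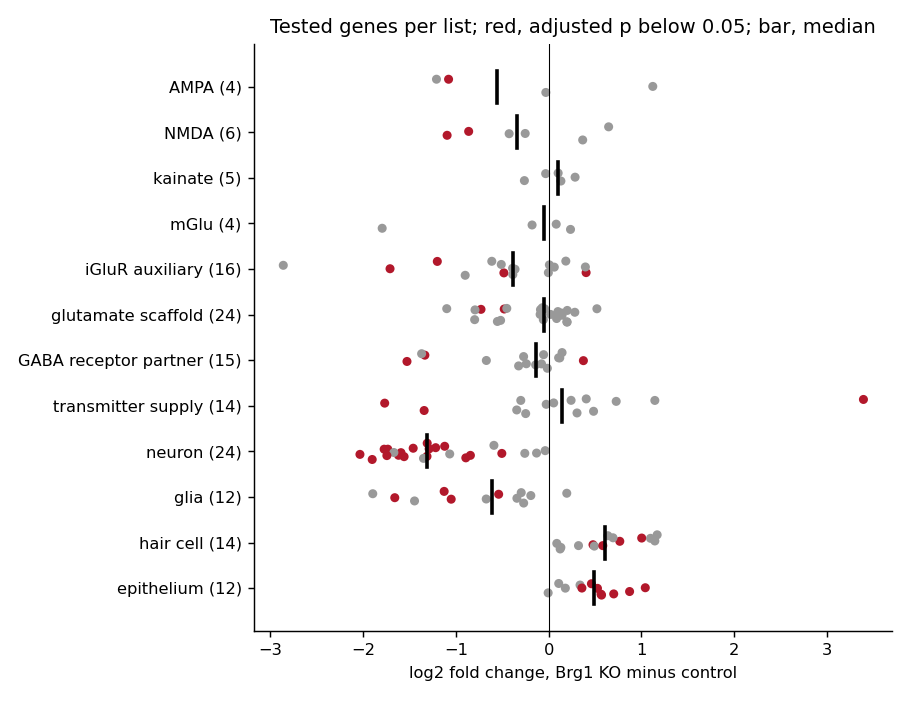
Log2 fold change, KO minus control, of the tested genes in 4 receptor classes and 8 lists, with the number of genes in brackets, called genes in red and the median as a bar. The neuron markers centre at -1.31, while the kainate genes lie around 0.10 and the medians of the AMPA and NMDA genes between.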

How the data were processed

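RNA was purified with RNeasy Micro columns and libraries were built with NEBNext Ultra RNA reagents, per the labels' protocols. Tools listed in the submitters' processing notes are HISAT2 2.0.5, featureCounts 1.5.0-p3, CASAVA 1.8, fastp and DESeq2 1.20.0, with mm10 as the build and no roles or settings. Strand use in counting is not stated. In the authors' table the values are estimated counts, not raw ones. Every value of the genes above 0 in all libraries was a multiple of 1 divided by 12 (within 0.001), with 1 fraction shared by 5 libraries and its complement by the other 2, and no source says how this arose. They were rounded before testing. The fit's 5 residual degrees of freedom make no allowance for any such adjustment. Raw counts were planned for, and the planned test was kept. FPKM are those the authors deposited. They served to compare levels between genes and to describe class sums and shares in KO and controls, without a test. They also served in 2 alternative tests, with limma on log2(FPKM + 0.1) and log2(FPKM + 1). No other per-sample columns were present.

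edgeR 4.0.16 in R 4.3.3 was used (TMM scaling, low counts removed with filterByExpr, robust quasi-likelihood fit, KO minus control, no covariate), with Benjamini-Hochberg adjustment over 17341 genes. CPM are scaled by TMM, and SEs were derived from the F statistic. Intervals have 95% confidence. Floors cover counting error only. DESeq2 1.42.0 and limma 3.58.1 served as alternatives, and the test was checked on simulated data. The simulated counts were independent draws at a common dispersion, and only genes of high counts were changed. That check therefore does not cover genes of low counts or the fractions of the deposited values. Control replicate 3 by title is numbered 4 in both tables. Exon overlaps used GENCODE M21, whose coordinates equalled those of the tables for all 46 genes. Named genes were the called members, the most abundant member of each class and the 6 uncalled members of smallest p. Called genes of the lists that work with the receptors, up to 3 abundant markers per list and other members were also named. Some members are not reported here. The members and lists were chosen with earlier results of these data known.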

Additional observations from a re-analysis of the deposited data

Results flagged for a closer look

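Among the CPM of 48 genes, the tested receptor genes and others reported, 2 had a KO library far from the other 3, where chance gives about 1 in 20. Grik5 was at 235 CPM in KO replicate 4, against 189 to 193 CPM in the other KO libraries. Grm4 was at 3.85 CPM in KO replicate 2, against 4.99 to 5.18 CPM in the other KO libraries.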

How the results depend on the processing

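Gria4 stayed called lower under all 17 alternatives, Grin1 under 13 and Grin3a under 7, and no receptor subunit was called higher under any. With 1 library left out, 2 subunits (without control replicate 1) to 7 (without KO replicate 3) were called lower, and 106 to 348 genes of the whole table higher and 450 to 847 lower. DESeq2 called 7 subunits lower, Gria2, Grin2d and Grm8 among them, and 517 genes higher. limma on log2(FPKM + 1) called Gabra5 and not Grin3a. A term for the 2 sets of libraries gave 207 genes higher and 669 lower and ended the call of Grin3a, and the 5 libraries alone 219 higher and 438 lower. Libraries with the same title number did not deviate together (correlations from -0.15 to 0.05). Nor did KO replicate 4 and control replicate 3, which share a number in the descriptions (-0.48). Those 2 are also the libraries that the fractions of the counts set apart. Deviations were taken from means of 4 KO and 3 control libraries, so these correlations cannot exclude a pairing by either numbering. A replicate block by the title numbers gave 2 subunits lower and 180 genes higher, and one by the description numbers, chosen after seeing the data, 74 higher and 536 lower. Uncalled genes near 0 turned direction. Gria3 ranged from -0.11 to 0.037 with 1 library left out, above 0 without control replicate 1 or KO replicate 2. Grid1 ranged from -0.29 to 0.020, above 0 without KO replicate 4, and was 0.13 in the 5 libraries and 0.020 under the title block. The causes were not tested. The effect of depth was not tested, and the floor of 3 counts was 0.159 to 0.186 CPM.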

Other observations

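Several GABA-A genes lie in clusters (mm10). On chromosome 5, 70751047 to 72149037, Gabra2 was at -0.64 ± 0.32 (log2 fold change ± SE), Gabra4 at -0.28 ± 0.25 and Gabrb1 at 0.02 ± 0.38. On the X chromosome, 72255999 to 72842602, Gabre was at 0.50 ± 0.19, Gabra3 at -0.29 ± 0.21 and Gabrq at 0.29 ± 0.29. None of these 6 genes passed the test against 0, and differences between genes of a cluster were not tested. Other clusters are not described here.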
